A study of Mus musculus with 9 samples.

Results

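The clustered protocadherins are cell-surface adhesion proteins of the cadherin family, encoded by the alpha, beta and gamma gene clusters, which lie one after another on mouse chromosome 18. All RefSeq transcripts whose gene symbol starts with Pcdha, Pcdhb or Pcdhg were taken, with no use of their values: 58 of the 30978 transcripts in each table, of which 14 were alpha, 22 beta and 22 gamma. The libraries were rRNA-depleted total RNA from the cerebral cortex of mouse embryos at E13.5. There were 3 control, 3 Sfpq+/- (heterozygous) and 3 Sfpq-/- (homozygous) embryos, 1 library each, from a strain given as C57BL/6+C57BL/6J+CBA. Sfpq encodes an RNA- and DNA-binding protein of the nucleus, and the series title places the study on long neuronal genes and transcriptional elongation. The make of the Sfpq alleles and the cells that lost Sfpq were not given in the sources used here. All values are RPKM, reads per kilobase of transcript scaled to the size of the library. A level in bulk tissue cannot tell fewer cells of a type from less RNA per cell.

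In the alpha and gamma clusters, each transcript begins with its own large variable exon, which carries its own promoter and encodes the whole extracellular part. That exon is spliced to a set of small constant exons at the far end of the cluster, which encode the shared end of the cytoplasmic tail. The beta genes have a single exon each and no constant part. The variable exons of alpha and gamma nearest the constant exons are the C type (Pcdhac1, Pcdhac2, Pcdhgc3, Pcdhgc4 and Pcdhgc5). Neurons choose a few of the other variable exons at random per cell, with CTCF and cohesin acting at the promoters, and most C-type exons are used more constantly. The proteins bind like to like between cells and serve in self-avoidance of dendrites, in survival of interneurons and in synapse formation.

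Sfpq itself was measured at 184, 202 and 218 RPKM in the control libraries, 185, 163 and 169 in the heterozygous and 26.1, 28.6 and 27.6 in the homozygous. The homozygous libraries lay far below all others (log2 change of -2.85 ± 0.07 SE, limma adjusted p = 7.51e-10, n = 3 a group), and heterozygous and control libraries overlapped (log2 change of -0.22, adjusted p = 0.772). The cortical markers Emx1, Emx2, Lhx2 and Pax6 were present in every library. Emx1 fell from 59.1 to 79.9 RPKM in control to 40.8 to 47.1 in homozygous libraries (log2 change of -0.62, adjusted p = 0.000328) and Lhx2 from 44.1 to 54.1 to 29.0 to 31.9 (-0.68, adjusted p = 3.00e-05). Emx2 and Pax6 were not called (-0.07 and 0.03, adjusted p = 0.615 and 0.806). Depth, estimated from the steps between low values, was 170 M to 206 M reads per library. Across all 17725 transcripts tested, 20.4% were called lower and 14.6% higher in homozygous than in control cortex (35.0% in either direction). In heterozygous against control cortex 0.0% were called, and in homozygous against heterozygous cortex 18.9% were called lower and 14.5% higher (33.4% in either direction). A call is a Benjamini-Hochberg adjusted p under 0.05 in a limma fit on log2(RPKM + 0.5) over transcripts with a mean of at least 0.5 RPKM. The 3 comparisons share libraries with one another.

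The clusters differed in level. The mean over the 9 libraries ran from 4.29 to 10.6 RPKM in gamma, from 1.59 to 2.61 in alpha and from 0.00230 to 1.12 in beta. Of the 58 transcripts, 43 passed the filter, all 14 alpha and all 22 gamma but only 7 beta. The constant exons are part of every alpha and gamma transcript, so their values are not independent. Most of them sat in a narrow band per library, and the values of a cluster varied together from library to library. Of the 22 gamma transcripts, 19 had their lowest value in control library 1 and 18 their highest in control library 3. Of the 14 alpha transcripts, 13 were lowest in homozygous library 2. Counts of alpha or gamma transcripts are not counts of independent genes.

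**Figure D1:**
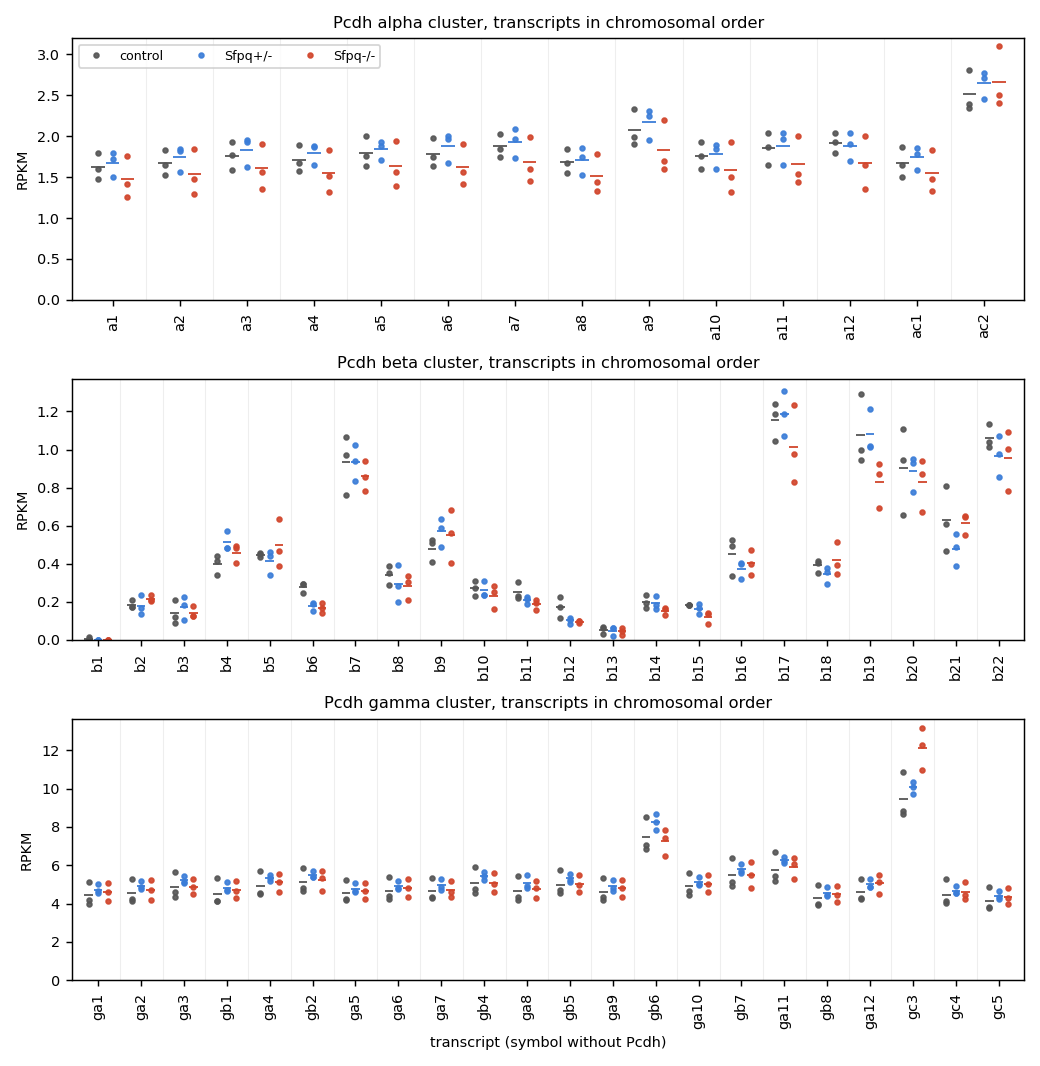
RPKM of all 58 clustered protocadherin transcripts (x axis, in chromosomal order within each cluster) in each of the 9 libraries; points are libraries, short lines are group means of 3 libraries. Pcdhac2, Pcdhgb6 and Pcdhgc3 stand above the band of their cluster, and only for Pcdhgc3 do all 3 homozygous libraries lie above all 3 control libraries among the gamma transcripts.

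In homozygous against control cortex, Pcdhgc3 rose, and no other alpha, beta or gamma transcript that passed the filter was called. Pcdhgc3, a C-type gamma protocadherin expressed widely in neurons and astrocytes and known to bind Axin1, was the highest of the family. It measured 8.70, 8.84 and 10.9 RPKM in the control libraries, 9.75, 10.1 and 10.4 in the heterozygous and 11.0, 12.3 and 13.2 in the homozygous. All homozygous libraries lay above all control and heterozygous ones, while control and heterozygous libraries overlapped. The mean went from 9.48 ± 1.22 (SD, n = 3) in control to 12.2 ± 1.10 in homozygous cortex, a log2 change of 0.35 ± 0.09 SE (95% interval 0.15 to 0.54, limma adjusted p = 0.0111). Without control library 2 the adjusted p was 0.0529. Against heterozygous cortex the log2 change was 0.26 ± 0.09 SE (adjusted p = 0.0469). That call was lost without any 1 heterozygous library (adjusted p = 0.122, 0.103 and 0.0740 without library 1, 2 and 3), without control library 2 (0.0582), without homozygous library 2 (0.1002) or 3 (0.159), and with no filter on low values (0.0852). Heterozygous and control cortex differed by a log2 change of 0.09 (adjusted p = 0.998).

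The other gamma transcripts did not pass the test. Of the 22, 0 were called lower and 1 higher, where 20.4% of all transcripts were called lower and 14.6% higher. The median log2 change was 0.04 against -0.01 over all transcripts tested. Pcdhgc5, the C-type exon nearest the constant exons, measured 3.75, 3.80 and 4.85 RPKM in control, 4.65, 4.32 and 4.22 in heterozygous and 3.96, 4.30 and 4.79 in homozygous libraries. Its neighbour Pcdhgc4, which is needed for the survival of cortical interneurons, measured 4.03, 4.11 and 5.26 RPKM in control, 4.90, 4.57 and 4.56 in heterozygous and 4.21, 4.44 and 5.11 in homozygous libraries. For both, the 3 groups overlapped, with homozygous minus control log2 changes of 0.07 (95% interval -0.15 to 0.29, adjusted p = 0.624) and 0.04 (-0.18 to 0.26, adjusted p = 0.798).

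Among the gamma A and gamma B exons, Pcdhgb6 stood highest. It measured 6.86, 7.08 and 8.51 RPKM in control, 8.66, 7.85 and 8.27 in heterozygous and 6.49, 7.42 and 7.83 in homozygous libraries. Homozygous and control libraries overlapped (log2 change of -0.04, adjusted p = 0.762), and the sign turned under other scalings of the libraries. Next came Pcdhga11 at means of 5.76, 6.27 and 5.89 RPKM in control, heterozygous and homozygous cortex, and Pcdhgb7 at 5.48, 5.78 and 5.50. The control SDs of these 2 transcripts were 0.799 and 0.775, larger than any of these differences. The first exons of gamma A and gamma B, Pcdhga1 and Pcdhgb1, had homozygous minus control log2 changes of 0.05 each (adjusted p = 0.724 and 0.717). Pcdhga12 had 0.13 (adjusted p = 0.334). Pcdhgb8, which GENCODE annotates as a pseudogene, had 0.06 (adjusted p = 0.646).

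In the alpha cluster, 0 of 14 transcripts were called in either direction in homozygous against control cortex, where 35.0% of all transcripts were. Of the 14, 0 had an unadjusted p under 0.05. The log2 changes ran from -0.17 to 0.07, 13 of the 14 negative, with a median of -0.11. Through the shared exons these changes are nearly one measurement. Pcdha12 had the most negative change, at 1.93, 1.8 and 2.04 RPKM in control, 2.04, 1.90 and 1.70 in heterozygous and 1.65, 1.35 and 2.00 in homozygous libraries (adjusted p = 0.255). Its homozygous library 3 lay within the control range. Pcdha1, the transcript with the longest span, measured 1.60, 1.48 and 1.79 RPKM in control, 1.799, 1.73 and 1.4995 in heterozygous and 1.42, 1.26 and 1.76 in homozygous libraries (log2 change of -0.11, 95% interval -0.34 to 0.12, adjusted p = 0.459). Pcdha9, the second highest alpha transcript, had group means of 2.07, 2.17 and 1.83 RPKM (log2 change of -0.15, adjusted p = 0.323). Pcdha7 and Pcdha8 had log2 changes of -0.13 and -0.12 (adjusted p = 0.361 and 0.390).

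The C-type alpha transcripts had changes of opposite sign. Pcdhac2, the highest of the alpha cluster and the isoform used by serotonergic neurons, measured 2.34, 2.39 and 2.81 RPKM in control, 2.78, 2.72 and 2.45 in heterozygous and 2.50, 2.41 and 3.10 in homozygous libraries. It was the one alpha transcript with a positive log2 change, 0.07 (95% interval -0.15 to 0.29, adjusted p = 0.628). Pcdhac1 had group means of 1.67, 1.74 and 1.55 RPKM and a log2 change of -0.09 (adjusted p = 0.549). The difference between these 2 changes was not tested.

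The beta genes share no exon with each other, but many are closely similar in sequence. Their values are uncertain where reads fit several of them, since the treatment of such reads was not given in the sources used here. Pcdhb1 was close to silent, with at most an estimated 7 reads in any library and none in 5 of the 9. The 7 genes that passed the filter were Pcdhb7, Pcdhb9, Pcdhb17, Pcdhb19, Pcdhb20, Pcdhb21 and Pcdhb22.

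Of these 7 beta genes, 0 were called in either direction in homozygous against control cortex, where 35.0% of all transcripts were. Of the 7, 1 had an unadjusted p under 0.05. That gene was Pcdhb19, at 1.29, 0.997 and 0.944 RPKM in control, 1.01, 1.21 and 1.02 in heterozygous and 0.872, 0.694 and 0.923 in homozygous libraries. All its homozygous libraries lay below all others, but the log2 change of -0.24 ± 0.11 SE had an adjusted p of 0.0947. Over all transcripts tested, 26.1% had homozygous libraries that all lay below the control libraries and 20.5% the reverse. Pcdhb17, the highest beta gene, measured 1.24, 1.19 and 1.04 RPKM in control, 1.07, 1.19 and 1.31 in heterozygous and 0.979, 0.830 and 1.23 in homozygous libraries (log2 change of -0.14, adjusted p = 0.344). Pcdhb22 had means of 1.06, 0.968 and 0.958 RPKM, Pcdhb7 of 0.932, 0.933 and 0.860, and Pcdhb9 of 0.479, 0.571 and 0.550 in control, heterozygous and homozygous cortex. Their log2 changes were -0.10, -0.07 and 0.09 (adjusted p = 0.440, 0.614 and 0.534). The summed RPKM of all 22 beta genes was 10.01 ± 1.07 (SD, n = 3) in control, 9.55 ± 0.812 in heterozygous and 9.08 ± 1.33 in homozygous cortex, with overlapping libraries.

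With a filter at a mean of 0.1 RPKM, 20 beta genes entered the fit and 1 was called lower, Pcdhb6, where 18.9% of all transcripts were called lower. It measured 0.293, 0.294 and 0.248 RPKM in control, 0.189, 0.196 and 0.152 in heterozygous and 0.194, 0.140 and 0.168 in homozygous libraries, from an estimated 89 to 217 reads per library. Both mutant groups lay wholly below the control libraries. The log2 change was -0.22 ± 0.06 SE in homozygous (adjusted p = 0.0168) and -0.20 ± 0.06 SE in heterozygous cortex (adjusted p = 0.761). On this scale, with 0.5 added to a low value, a log2 change understates the change in RPKM. With no filter Pcdhb15 was called lower too (log2 change of -0.14, adjusted p = 0.0336), at 0.184, 0.182 and 0.183 RPKM in control and 0.135, 0.0847 and 0.141 in homozygous libraries, and 14.0% of all transcripts were called lower. Pcdhb6 and Pcdhb15 were chosen after their values were seen. Of the 20 beta genes, 5 had homozygous libraries that all lay below the control libraries, against 24.7% of all transcripts at that filter.

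To look at the variable exons apart from the constant ones, RPKM was multiplied by transcript length, which gives a share of the library's reads, and the lowest such product of the cluster in the same library was subtracted. The remainder was divided by the length of the variable exon. This removes reads in the constant exons if each of them was counted whole for every transcript. Over all transcripts the products summed to 0.988 to 1.06 times the reads of the library, above 1 in 6 of 9. The lengths came from GENCODE M21, and the annotation behind the deposited values was not given. These sums therefore cannot tell whether shared reads were counted once or more than once. The transcript subtracted was Pcdha1 in all 9 libraries of the alpha cluster and Pcdhgc5 in all 9 of the gamma cluster. Whatever lies in the variable exon of Pcdha1 or Pcdhgc5 is lost with it, and a change there moves all the others the opposite way. The remainder is called the variable part here, in RPKM of variable exon, and was available for 35 of the 36 alpha and gamma transcripts. It was chosen after the data were seen. The libraries were total RNA, and a variable exon lies within the unspliced span of every transcript of its cluster that starts before it. Reads from such unspliced RNA cannot be told from reads of the exon's own transcript here.

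The constant exons are 2860 nt in alpha and 2119 nt in most gamma transcripts, over 3 exons. If reads in the constant exons were counted whole for every transcript, their level has an upper limit. For alpha it was at most 2.98 ± 0.292 RPKM (SD, n = 3) in control, 3.07 ± 0.287 in heterozygous and 2.71 ± 0.470 in homozygous cortex. For gamma it was at most 9.25 ± 1.38, 9.84 ± 0.507 and 9.73 ± 0.929 RPKM. The summed variable part was 7.31 ± 0.508, 7.50 ± 0.375 and 7.06 ± 1.08 RPKM in alpha and 38.1 ± 3.38, 41.8 ± 1.45 and 38.9 ± 4.24 in gamma. None of these totals separated the groups: homozygous and control libraries overlapped in each. In both clusters the summed variable part lay above the upper limit of the constant exons in every library. A spliced transcript carries its own variable exon and the constant exons. With constant-exon reads counted whole, the variable part therefore cannot be read as the level of spliced transcripts alone. The reason for the excess was not tested.

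Within those totals, the share of single exons differed. Before division by exon length, the remainder made up 55.9% of the product of Pcdhgc3 in control cortex. It made up 44.1% for Pcdhgb6, 42.4% for Pcdhac2 and 5.70% for Pcdhga1. Pcdhgc3 measured 8.95, 9.12 and 10.9 RPKM of variable exon in control, 9.20, 10.5 and 11.1 in heterozygous and 12.8, 14.4 and 15.2 in homozygous libraries. All homozygous libraries were above all others, with a log2 change of 0.53 ± 0.10 SE against control (95% interval 0.32 to 0.74, limma adjusted p = 0.00122) and 0.45 against heterozygous cortex (adjusted p = 0.00387). The call against control held without each of the 9 libraries in turn (adjusted p at most 0.00769). It also held when 50% of the lowest product was subtracted in place of all of it (log2 change of 0.42, adjusted p = 0.00359).

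**Figure D2:**
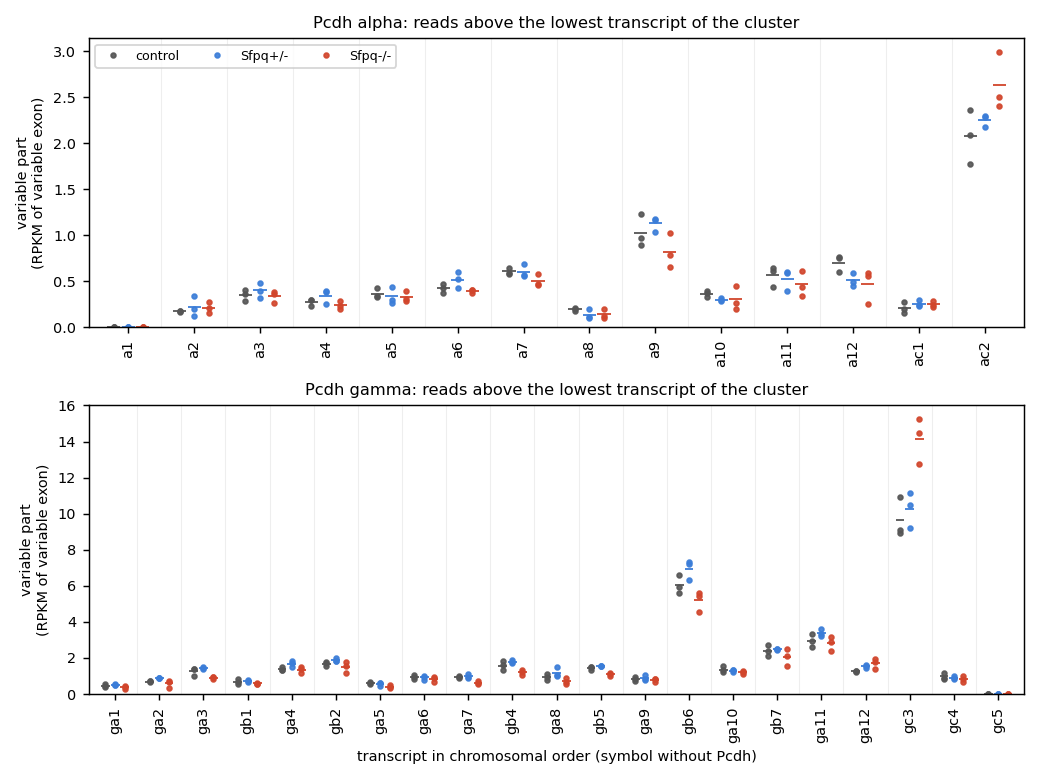
Variable part, in RPKM of variable exon, of the alpha and gamma transcripts (x axis, in chromosomal order) in each of the 9 libraries; points are libraries, short lines are means of 3 libraries, and Pcdha1 and Pcdhgc5 are 0 by construction. Pcdhgc3 runs from 8.95 to 11.1 in control and heterozygous libraries and from 12.8 to 15.2 in homozygous libraries.

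A ratio to the cluster's median needs no subtraction. Pcdhgc3 was 2.04, 2.02 and 2.01 times the median gamma RPKM in the control libraries, 1.83, 2.07 and 2.15 times in the heterozygous and 2.49, 2.54 and 2.50 times in the homozygous. The control values fell within a narrow range although the gamma cluster as a whole varied between the same libraries. Pcdhgb6 was 1.61, 1.62 and 1.57 times that median in control, 1.62, 1.60 and 1.71 times in heterozygous and 1.47, 1.54 and 1.49 times in homozygous libraries, so it lay lower in all homozygous libraries. Pcdhga12 was 0.996, 0.978 and 0.972 times in control, 0.985, 0.997 and 1.01 times in heterozygous and 1.02, 1.06 and 1.04 times in homozygous libraries. Pcdhgb5 was 1.07, 1.07 and 1.06 times in control and 1.04, 1.03 and 1.04 times in homozygous libraries. Pcdhga5, Pcdhga7 and Pcdhgb4 also lay lower in all homozygous than in all control libraries, by narrow margins. Among gamma transcripts only Pcdhgc3 and Pcdhga12 lay higher in this way. In the alpha cluster Pcdhac2 was 1.33, 1.48 and 1.44 times the median in control, 1.43, 1.44 and 1.49 times in heterozygous and 1.61, 1.78 and 1.62 times in homozygous libraries. These ratios are given as a description, with no test.

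Besides Pcdhgc3, the variable part was called higher in homozygous than in control cortex for Pcdhac2 and Pcdhga12. Over all transcripts in that fit 20.4% were called lower and 14.6% higher. Pcdhac2 measured 1.77, 2.09 and 2.36 RPKM of variable exon in control, 2.28, 2.29 and 2.17 in heterozygous and 2.41, 2.50 and 2.99 in homozygous libraries (log2 change of 0.29 ± 0.10 SE, adjusted p = 0.0442). That call was kept only without control library 3 or homozygous library 1 among the 9 single libraries left out: without control libraries 1 and 2 the adjusted p was 0.156 and 0.0972, without heterozygous libraries 1 to 3 it was 0.0561, 0.0620 and 0.0554, and without homozygous libraries 2 and 3 it was 0.0598 and 0.160. Pcdhga12, the last of the gamma A exons, measured 1.29, 1.24 and 1.27 RPKM in control, 1.57, 1.44 and 1.60 in heterozygous and 1.4, 1.94 and 1.77 in homozygous libraries. Both mutant groups lay above the control libraries (homozygous against control log2 change of 0.31 ± 0.10 SE, adjusted p = 0.0248; 0.0759, 0.0929 and 0.0742 without control library 2, homozygous library 2 and homozygous library 3). With 50% subtracted, neither Pcdhac2 nor Pcdhga12 was called (adjusted p = 0.284 and 0.193).

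The variable part was called lower for 5 of the 20 gamma transcripts tested, Pcdhga3, Pcdhga5, Pcdhga7, Pcdhgb4 and Pcdhgb5, and for 0 of 13 alpha transcripts, of which 2 had an unadjusted p under 0.05, Pcdhac2 and Pcdha12. Pcdhga7 measured 0.952, 0.990 and 0.894 RPKM of variable exon in control, 1.13, 0.921 and 0.879 in heterozygous and 0.625, 0.570 and 0.706 in homozygous libraries (log2 change of -0.35 ± 0.09 SE, adjusted p = 0.00893). Pcdhgb5 measured 1.36, 1.51 and 1.49 RPKM in control, 1.53, 1.57 and 1.56 in heterozygous and 1.02, 1.08 and 1.15 in homozygous libraries (log2 change of -0.30 ± 0.07 SE, adjusted p = 0.00744). For both, the homozygous libraries lay below all others and the call held without each library in turn. Pcdhga3, Pcdhga5 and Pcdhgb4 had log2 changes of -0.32, -0.30 and -0.28 (adjusted p = 0.0288, 0.0334 and 0.0450). From RPKM as deposited the same 5 transcripts had log2 changes of 0.01 to 0.03, so the sign turned with the subtraction.

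These 3 calls depended on single libraries. For Pcdhga3 the call ended on leaving out control library 2, control library 3 or any 1 homozygous library (adjusted p of 0.0509 to 0.119). For Pcdhga5 it ended without control libraries 1 and 2 and homozygous libraries 1 and 3, each in turn (0.0771 to 0.118). For Pcdhgb4 it ended without control libraries 2 and 3, each heterozygous library and homozygous libraries 1 and 2, each in turn (0.0560 to 0.156). With 50% of the lowest product subtracted, 0 of the 20 gamma transcripts were called lower, and the log2 changes of the 5 lay between -0.04 and 0.00. In heterozygous against control cortex 0 of 20 gamma and 0 of 13 alpha transcripts were called, and 1 of these 33 had an unadjusted p under 0.05. In homozygous against heterozygous cortex 7 gamma transcripts were called lower, where 19.0% of all transcripts were, and Pcdhgc3 was called higher. The 7 were Pcdhga2, Pcdhga3, Pcdhga7, Pcdhga8, Pcdhgb4, Pcdhgb5 and Pcdhgb6, with log2 changes from -0.48 to -0.36. The gamma transcripts named for the variable part alone were chosen after their values were seen.

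**Figure D3:**
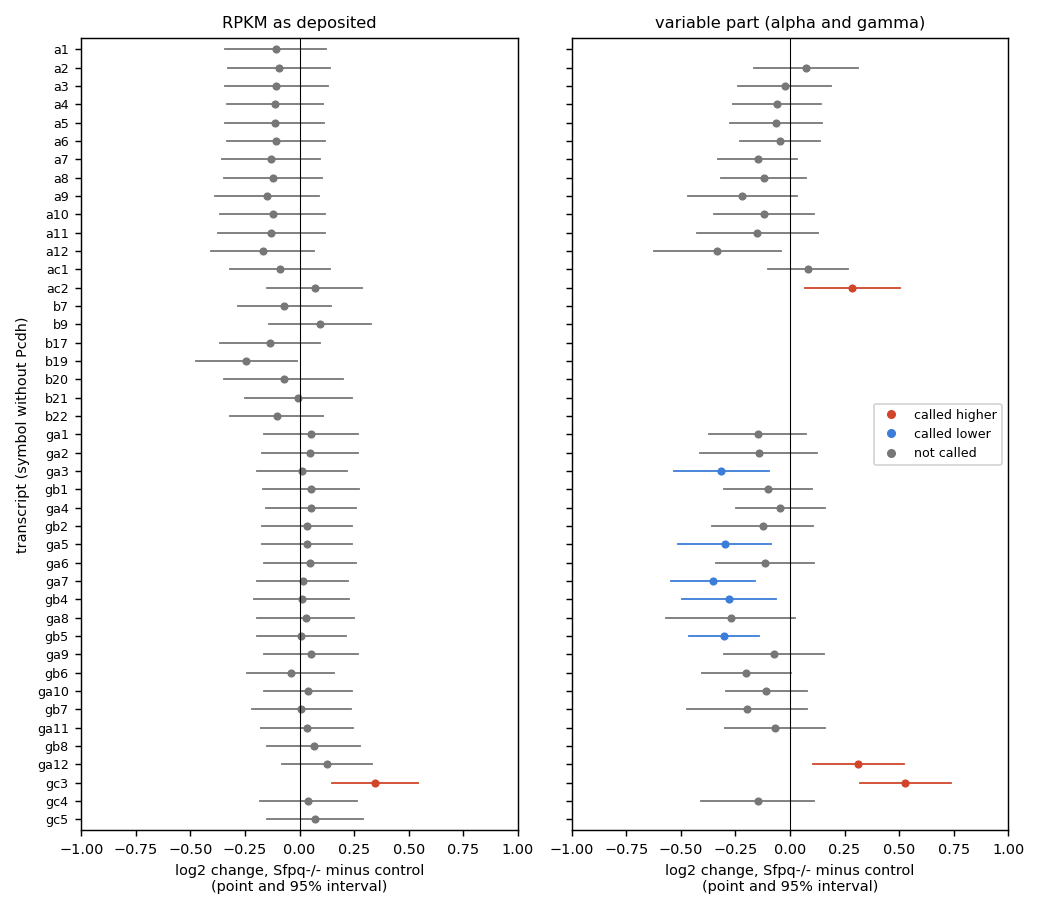
Homozygous minus control log2 change with its 95% interval for the 43 transcripts that passed the filter, from RPKM as deposited (left) and from the variable part of alpha and gamma transcripts (right). On the left Pcdhgc3 alone was called (0.35); on the right Pcdhgc3 (0.53), Pcdhga12 (0.31) and Pcdhac2 (0.29) were called higher and 5 gamma transcripts lower.

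The C-type exons held a higher share of the reads above the lowest product in homozygous cortex. This share was taken before division by exon length, so longer exons weigh more in it. In gamma, Pcdhgc3 and Pcdhgc4 held 27.9% ± 1.45 (SD, n = 3) of those reads in control, 26.7% ± 2.02 in heterozygous and 38.4% ± 1.73 in homozygous cortex. In alpha, Pcdhac1 and Pcdhac2 held 35.2% ± 2.68 in control, 37.6% ± 1.32 in heterozygous and 45.5% ± 1.90 in homozygous cortex. In both clusters every homozygous library lay above every control and heterozygous one. In gamma the higher share was that of Pcdhgc3 alone: the mean variable part of Pcdhgc4 was 0.976 RPKM in control and 0.834 in homozygous cortex, and that of Pcdhgc5 is 0 by construction. Pcdhac1 was low at 0.208 and 0.249 RPKM, so most of the alpha share came from Pcdhac2. No test was made of these shares. With 50% of the lowest product subtracted the gamma share was 18.4% to 18.9% in control and 21.7% to 22.2% in homozygous libraries, and the alpha share 18.5% to 19.9% and 21.9% to 23.3%.

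**Figure D4:**
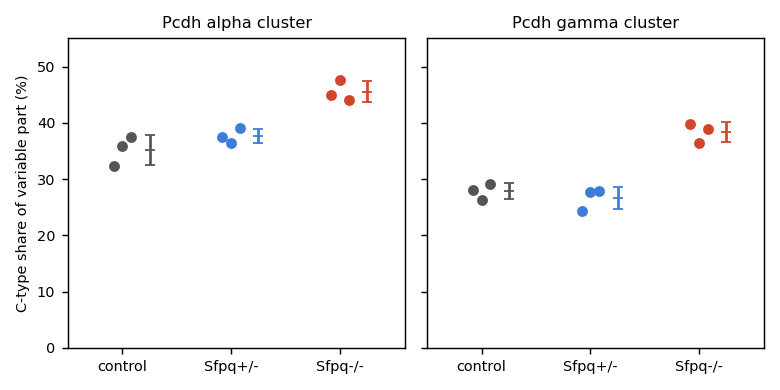
Share of the summed reads above the lowest product, in percent and before division by exon length, that came from C-type exons, by genotype. The C-type exons were Pcdhac1 and Pcdhac2 for alpha and Pcdhgc3 and Pcdhgc4 for gamma. Points are libraries and bars show the mean and SD of 3 libraries. Homozygous libraries lie at 44.0% to 47.6% in alpha and 36.4% to 39.7% in gamma, above all other libraries.

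The alpha and gamma transcripts span long stretches of the genome, from 44.0 to 257 kb in alpha and from 22.3 to 180 kb in gamma (RefSeq spans on GRCm38.p6), and within each cluster the C-type transcripts are the shortest. Of the 25 with a span of at least 100 kb, 0 were called lower and 0 higher in homozygous cortex from RPKM as deposited. Among all 3055 transcripts of at least 100 kb tested, 40.8% were called lower and 12.4% higher. The 25 are not independent, since they end in the same constant exons. In the variable part, 5 of 24 transcripts of at least 100 kb were called lower and 0 higher. Of the 9 shorter ones, 0 were called lower and 3 higher. Over all transcripts in that fit, 20.4% were called lower and 14.6% higher. All 5 called lower were gamma transcripts, and 0 of 13 alpha transcripts were called lower. With a fraction of 0.5 of the lowest product subtracted, none of the 5 was called, and of the 3 only Pcdhgc3 was. Across transcripts, the ratio of homozygous to control mean variable part had a Spearman correlation with span of -0.36 in gamma (n = 20) and 0.18 in alpha (n = 13), which share library, depth and the subtracted transcript within each cluster. The ratio was below 1 in 18 of 20 gamma transcripts (median 0.859) and in 10 of 13 alpha transcripts (median 0.889). Under median centring or quantile normalization of the libraries, the median alpha log2 change of the variable part turned positive (0.01 and 0.11, against -0.06), while the gamma median stayed negative (-0.08 under each, against -0.15).

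In heterozygous against control cortex no member was called in any cluster, and 0 of 43 had an unadjusted p under 0.05, against 969 of all 17725 transcripts tested. The log2 changes ran from -0.02 to 0.07 in alpha, from -0.20 to 0.13 in beta and from 0.07 to 0.14 in gamma. All 22 gamma changes were positive, again as nearly one measurement. In homozygous against heterozygous cortex Pcdhgc3 was the one member called, and the other gamma log2 changes ran from -0.18, for Pcdhgb6, upward. Alpha changes ran from -0.20 to 0.00 and beta changes from -0.25 to 0.19.

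A list of 20 genes that act at protocadherin promoters includes CTCF, cohesin and its loaders, DNA methyltransferases and the repressors Smchd1, Setdb1 and Trim28. Of these, 3 were called lower and 0 higher in homozygous against control cortex, where 20.4% of all transcripts were called lower and 14.6% higher. Ctcf, which was not called, measured 29.8 ± 2.5 and 29.6 ± 1.5 RPKM (SD, n = 3) in control and homozygous cortex (log2 change of -0.01, adjusted p = 0.946). The cohesin subunits Rad21 (56.7 to 48.7 RPKM, log2 change of -0.21, adjusted p = 0.0392) and Stag2 (92.3 to 81.3, -0.18, adjusted p = 0.0119) fell. So did Lrif1, a partner of Smchd1 (4.03 to 2.52, -0.60, adjusted p = 0.00133). Stag1 had -0.15 (adjusted p = 0.0538). Median centring left 1 of the 20 called lower and 1 higher.

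Of 27 genes for partners of protocadherins in signalling and cleavage, 25 passed the filter. There were 5 called lower and 3 higher in homozygous against control cortex, or 3 lower and 5 higher under median centring. This is close to the 35.0% of all transcripts called, and is no result about the list. Nlgn1, a synaptic adhesion protein, went from 4.43 to 0.713 RPKM (log2 change of -2.02, adjusted p = 8.45e-08). The tyrosine kinase Fyn went from 31.9 to 16.6 RPKM (-0.91, adjusted p = 6.80e-06) and Prkca, a protein kinase C, from 1.14 to 0.528 (-0.67, adjusted p = 7.11e-05). Wasf1, of the WAVE complex, which binds the tails of several protocadherins, rose from 4.25 to 5.90 RPKM (0.44, adjusted p = 0.00688). The other called genes, named after their values were seen, were Cyfip2 (-0.24) and Aph1a (-0.18) lower and Abi2 (0.20) and Psen2 (0.40) higher. Axin1, which was not called, measured 12.5 and 12.3 RPKM (-0.02, adjusted p = 0.822).

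Of 18 genes beside or between the clusters, 14 passed the filter, and 1 was called lower and 1 higher in homozygous against control cortex (4 higher under median centring). Taf7, a gene of the general transcription machinery that lies between the beta and gamma clusters, rose from 24.7 to 28.5 RPKM (log2 change of 0.20, adjusted p = 0.00951). Hdac3, a histone deacetylase beyond the gamma cluster, fell from 61.3 to 51.0 RPKM (-0.27, adjusted p = 0.00182).

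Markers of cell types were called in homozygous against control cortex in counts to be read against the 20.4% of all transcripts called lower and 14.6% called higher. Of 16 pan-neuronal genes 5 were called lower and 2 higher, with summed levels of 679.6 to 778.6 RPKM in control and 611.4 to 772.6 in homozygous libraries. Of 10 excitatory neuron genes 4 were lower and 3 higher (140.1 to 183.1 and 108.6 to 135.8 RPKM). Of 12 genes of radial glia and dividing cells 6 were lower and 1 higher (2473 to 2657 and 2170 to 2260.2 RPKM). Of 8 microglia genes 3 were higher (20.7 to 23.6 and 25.5 to 35.5 RPKM; 6 higher under median centring). Of 5 tested GABAergic genes 1 was higher, of 9 endothelial and pericyte genes 1 was higher, of 8 genes of meninges and choroid plexus 0 were called, and of 6 red blood cell genes 2 were lower. Dlx2, Dlx5 and Slc32a1, which define GABAergic neurons, were below the filter. The part of cell-type differences in the change of Pcdhgc3 was not tested.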

How the data were processed

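The libraries were rRNA-depleted and stranded, per the labels' protocols. The submitters' processing notes name CASAVA 1.8.2, TopHat 1.4.1 and the build mm9. The program that made the values, its annotation and its handling of strand, shared exons and reads with several matches were not given in the sources used here. The authors deposited RPKM for 30978 RefSeq transcripts per library, per the file headers, with no counts. Depth was estimated from steps of low values, with lengths of another annotation, so no count test was run.

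Symbols came from RefSeq (30507 transcripts) and GENCODE M21, 293 staying unnamed. The files' build differs from the reference, so no coordinates are given, and no sequences are shown. All 9 libraries were fitted with limma 3.58.1 (R 4.3.3) on log2(RPKM + 0.5), for transcripts with a mean of at least 0.5 RPKM, with Benjamini-Hochberg adjustment over all of them. The fit was tested on simulated data. Exon lengths for the variable part came from GENCODE M21; Pcdhgb8 was left out of it, as its model ends early.

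Members described singly were the 4 highest and the 4 of smallest adjusted p per cluster, those called in a comparison, the C-type transcripts and the first exon of alpha, gamma A and gamma B, and of other lists the 4 of smallest adjusted p. The members and lists were chosen with earlier results of these data known. Replicates are separate embryos, per the design text. Pseudocount, filter, scaling, libraries, transcript choice and a replicate block were varied.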

Additional observations from a re-analysis of the deposited data

How the results depend on the processing

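The number of alpha, beta or gamma transcripts called changed under few alternatives. Beta transcripts called lower in homozygous against control cortex went from 0 to 1 with a filter at a mean of 0.1 RPKM and to 2 with no filter, and more transcripts were tested there. The 1 gamma transcript called higher (Pcdhgc3) ranged from 0 to 1 when single libraries were left out. Against heterozygous cortex it ranged from 0 to 1 and was 0 with no filter, and alpha transcripts called lower there ranged from 0 to 1. With the variable part, 1 alpha and 2 gamma transcripts were called higher and 5 gamma lower against control, and 7 gamma lower against heterozygous cortex. These numbers were the least stable. With single libraries left out, the ranges against control were 0 to 1 higher and 0 to 2 lower in alpha and 1 to 2 higher and 2 to 4 lower in gamma. Quantile normalization gave 3 alpha higher and median centring 3 gamma lower. Subtracting 50% of the lowest product left 0 alpha higher, 1 gamma higher and 0 gamma lower against control, and 0 gamma lower against heterozygous cortex. The cause was not tested.

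Homozygous against control log2 changes near 0 changed sign, none of them called as deposited. In the variable part the values were 0.083 for Pcdhac1, -0.15 for Pcdhga1, -0.068 for Pcdhga11, -0.10 for Pcdhgb1, -0.20 for Pcdhgb7 and -0.15 for Pcdhgc4. The 5 gamma transcripts called lower there, at 0.01 to 0.03 as deposited, changed sign too. For Pcdhgb6 the change was 0.026 under quantile normalization and 0.028 under median centring. With single libraries left out, the ranges were -0.026 to 0.14 for Pcdhac2, -0.012 to 0.15 for Pcdhga1, -0.031 to 0.14 for Pcdhga11, -0.0092 to 0.16 for Pcdhgb1, -0.097 to 0.048 for Pcdhgb6, -0.072 to 0.11 for Pcdhgb7 and -0.033 to 0.15 for Pcdhgc4.

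The replicate numbers were not used to pair the samples in the main fit. Deviations of same-numbered libraries correlated between -0.04 and 0.39, over 0.1 in 2 of 9 pairs. Between control and homozygous libraries the correlations were 0.39, 0.097 and 0.32 for the same number and -0.40 to 0.05 for different numbers. These values do not settle whether the numbers pair the embryos. With a replicate block, Pcdhgc3 kept its call against control (log2 change of 0.35), with 1 gamma transcript higher. Over all transcripts the block gave 3787 lower and 2833 higher, against 3608 and 2588. Median centring gave 2932 lower and 4469 higher, and quantile normalization 3209 and 3952. With 3 embryos a group and a shared constant part, smaller changes of single exons were not detectable.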
